A study of Mus musculus with 29 samples.

Results

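The transcripts of 3 genes, Prok2, Ggt1 and Mgam, were followed in the neutrophils of 29 Drop-seq libraries from mouse blood and brain after stroke. In Drop-seq, each cell shares a droplet with a bead whose barcode tags its transcripts. The blood cells that the authors' annotation codes Neu numbered 17186 and the brain cells coded Gran numbered 1531, of 106977 deposited cells in all. The 3 genes were taken from 16623 genes in the blood tables, 19704 in the young brain tables and 27514 in the aged brain tables. They had been chosen by their measured values in these libraries. The comparisons taken to have picked them are those in which a rule of size returns them, and these are given as descriptions with no test of the gene picked. The rule ranked called genes without overlap of libraries and with a mean of at least 20 CPM. It left out predicted, ribosomal, mitochondrial, haemoglobin and antigen receptor genes. Genes over 10-fold higher in another cell type of at least 500 cells were left out too. Among the rest, the 3 with the lowest log2 fold change were Prok2, Rhov and Ggt1 in blood at day 14 after stroke against sham. They were Prok2, Prnp and Ggt1 in blood at day 14 against day 2, and Mgam was the lowest in brain against blood at day 2.

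All mice were C57BL/6J, and the middle cerebral artery was occluded transiently to give a stroke. Young males of 8 to 10 weeks gave 4 blood and 4 brain libraries at day 2 after sham surgery, and 4 of each at day 2 after stroke. At day 14 after stroke they gave 3 blood and 4 brain libraries. Aged mice (17 to 20 months) were sampled in brain only. At day 2 there was 1 male and 1 female library after sham surgery, and 1 male and 2 female libraries after stroke, and a single female library came from day 14 after stroke. There was no sham group at day 14, so time since surgery and the late stage of stroke cannot be told apart. Each brain library pooled 4 to 5 hemispheres, which were digested with papain in the presence of Brilliant Blue G, actinomycin D and AP-5 and then sorted for leukocytes with high CD45, microglia and endothelial cells. Each blood library pooled 2 mice, was depleted of red cells by lysis and Ter-119 beads, and saw Brilliant Blue G and actinomycin D. Blood was neither digested nor sorted, so tissue and preparation cannot be told apart.

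Prok2 encodes prokineticin 2, also called Bv8, a small secreted protein that acts through G protein-coupled receptors. Neutrophils make it in response to G-CSF, and it is known for promoting angiogenesis and, in the suprachiasmatic nucleus, as an output of the circadian clock. Ggt1 encodes gamma-glutamyltransferase 1, a cell-surface enzyme that starts the breakdown of extracellular glutathione and converts leukotriene C4 to leukotriene D4. Mgam encodes maltase-glucoamylase, best known as a starch-digesting enzyme of the intestinal brush border.

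In the GENCODE annotation of GRCm38, all 3 are protein-coding genes. Prok2 lies on the minus strand at chr6:99711299-99726392, Mgam on the plus strand at chr6:40628831-40769123 and Ggt1 on the plus strand at chr10:75561604-75586200. Prok2 and Ggt1 had moved together across the blood groups while Mgam had not. The same blood comparisons had picked Prok2 and Ggt1, so their shared fall at day 14 follows from the choice. With this pattern known, the 250 bases upstream of a start site were read from the RefSeq promoter table (GRCm38.p6). Ggt1 has 4 start sites in that table, and the most upstream of them is shown. They run 5′ to 3′ on the strand of the gene. In GENCODE, the Mgam window overlaps no gene, the Ggt1 window lies in an intron of longer Ggt1 transcripts, and the Prok2 window lies in an intron of Gm26748, an antisense gene that overlaps the start of Prok2. Whether the counting used strand is not given in the sources used here. Capitals mark CACGTG, the E-box core that the circadian clock factors bind.
Prok2, chr6:99726393-99726642: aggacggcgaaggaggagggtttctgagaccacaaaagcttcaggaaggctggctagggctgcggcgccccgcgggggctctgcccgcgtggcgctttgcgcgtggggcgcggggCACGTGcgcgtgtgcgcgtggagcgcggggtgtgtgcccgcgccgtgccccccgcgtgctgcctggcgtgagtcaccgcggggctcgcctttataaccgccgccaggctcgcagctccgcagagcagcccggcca
Ggt1, chr10:75563882-75564131: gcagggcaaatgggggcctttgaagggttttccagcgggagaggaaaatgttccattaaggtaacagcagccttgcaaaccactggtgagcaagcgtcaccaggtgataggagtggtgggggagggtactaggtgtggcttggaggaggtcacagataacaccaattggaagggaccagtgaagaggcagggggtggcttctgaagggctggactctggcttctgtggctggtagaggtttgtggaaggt
Mgam, chr6:40628581-40628830: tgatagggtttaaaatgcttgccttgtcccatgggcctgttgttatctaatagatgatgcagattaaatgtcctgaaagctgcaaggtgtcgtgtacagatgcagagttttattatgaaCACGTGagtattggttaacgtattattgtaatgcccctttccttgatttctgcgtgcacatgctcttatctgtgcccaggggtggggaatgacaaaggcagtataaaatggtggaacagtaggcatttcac
Searched on both strands, CACGTG occurred once in the Prok2 window, starting 135 bases before the start site, and once in the Mgam window, 131 bases before it. None of the 4 Ggt1 windows held it, and 6.02% of 32851 such windows did. The letters TTGCNNAA (C/EBP-like) and TTCNNNGAA (STAT) were in none of the windows of the 3 genes and in 9.56% and 7.02% of all windows. GAGGAA (PU.1) occurred once, in the Ggt1 window shown, and in 23.3% of all windows. None of these matches overlapped another.

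The authors' expected counts were summed over the neutrophils of each library and are given as CPM, relative to the total of those neutrophils' counts in that library. Blood libraries held 435 to 3968 neutrophils with 212122 to 2949522 counts, and brain libraries 21 to 169 neutrophils with 9605 to 117285 counts. The median neutrophil had 273 to 1092 counts. No 2 libraries shared more than 7 cell barcodes over 406 pairs. The neutrophil markers were the highest list in each group. The summed level of 12 neutrophil markers was 202500 to 313900 CPM in blood sham and 54960 to 72320 CPM in young brain at day 14, where it was lowest. Ly6g was at 0 in young brain at day 14 and Camp was at 0 in young brain at day 2 after stroke. Microglial markers summed to 94.3 to 361 CPM in brain sham, 65.4 to 539 at day 2 after stroke and 369 to 500 at day 14, and none of the 6 genes was at 0 in a young brain group. Monocyte and macrophage markers summed to 539 to 1535, 361 to 1321 and 399 to 1042 CPM in the same groups. The 2 eosinophil markers measured in young brain, Ccr3 and Siglecf, summed to 0 to 15.8, 0 to 136 and 0 to 241 CPM there. Ccr3 was at 0 in sham and at day 2, so Siglecf alone gave those sums. Siglecf is also in the aged and tissue neutrophil list used below. All 5 eosinophil markers summed to 24.1 to 234 CPM in aged brain at day 2 after stroke, where Ccr3, Epx and Ear6 were at 0. The part of these marker lists in the results was not tested.

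Prok2 and Mgam were transcripts of neutrophils and almost of no other cell. Neutrophils held 99.7% of the Prok2 counts of blood and 99.3% of those of young brain, and 99.0% of the Mgam counts of blood and 94.0% of those of young brain. In aged brain, 3 Prok2 counts lay in cells of the code MdC. Ggt1 was less exclusive. Neutrophils held 89.8% of its blood counts at a pooled 61.8 CPM, and T cells held 9.25% at 16.8 CPM. In young brain, neutrophils held 76.8% of Ggt1 counts and cells of the code MC 14.4%, from 5 counts. The pooled Ggt1 level there was 40.3 CPM in neutrophils and 58.9 CPM in MC cells, with overlapping counting intervals (26.4 to 59.3 and 19.6 to 141 CPM). In aged brain it was 21.0 CPM from 5 counts in neutrophils and 24.8 CPM from 1 count in MC cells. B cells served as the background of free RNA. In blood sham, 0 of 6956 B cells had a Prok2 or Mgam count and 3 had a Ggt1 count, against 14.6%, 6.07% and 7.1% of 5451 neutrophils with Prok2, Mgam and Ggt1. The median depths were 438 counts in those B cells and 633 in those neutrophils.

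In blood, Prok2 was present in sham and in early stroke and was not detected at day 14. The sham libraries stood at 497, 213, 231 and 12.3 CPM (replicates 1 to 4), the day 2 stroke libraries at 148, 78.9, 140 and 119 CPM, and the 3 day 14 libraries at 0. The sham libraries spread over a far wider range than the day 2 libraries and enclosed all of them. The mean was 238 ± 199 CPM (SD, n = 4) in sham and 121 ± 30.9 CPM (SD, n = 4) at day 2. Sham replicate 4 stood apart with 3 counts of 243732. It also held 32.2% of its neutrophils in the subtype Neu3, against 3.2% and 4.0% in replicates 1 and 3. Within Neu2 this library was again the lowest of the 4, at 51.9 CPM. Replicate 1, the highest in sham and at day 2, had a low median percent of mitochondrial counts per neutrophil. It was 0.0871% in sham, against 0.768 to 1.38% in the other sham libraries. At day 2 it was 0.063%, against 0.727 to 2.04% in the others. The part of this difference in the Prok2 values was not tested.

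Both of these groups had helped to pick Prok2 and Ggt1, so day 2 against sham is described for them with no test. The log2 fold change of Prok2 was -1.09 ± 0.55 (SE). Without sham replicate 4 it was -1.43, and without sham replicate 1, the highest, it was -0.36. In edgeR's quasi-likelihood test no gene was called in this comparison, 0.0% of 4944 tested, although 209 passed 0.05 before adjustment, and by DESeq2 the number called was 0 too. Without a filter on low counts, edgeR called 32 genes. Over the 16 alternatives that tested them, Prok2 and Ggt1 were each called in at least 1, which is no test of genes picked here.

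At day 14, 0 Prok2 counts were found among 1307864 counts of 2922 blood neutrophils. With a floor of 3 counts over the group, the level was at least 104-fold lower than in sham and at least 52.9-fold lower than at day 2, where 3.3% of genes were called lower. Without sham replicate 1 the bound against sham was 66.4-fold, without day 14 replicate 1 it was 65.3-fold and without day 14 replicate 2 it was 55.5-fold. Against day 2 it was 33.3-fold and 28.3-fold without those day 14 libraries. The comparison with sham picked the gene, and 3.8% of the 4944 genes were called lower in it and 4.09% had all day 14 libraries below all sham libraries. Sham replicate 4, at 12.3 CPM, also lay above the 3 day 14 libraries, in which 3 counts would have given 4.92 to 14.1 CPM. It could not be told from them at the depth of day 14 replicate 3. The neutrophil markers summed to 202500 to 313900 CPM in blood sham, 178900 to 283100 CPM at day 2 and 116000 to 217500 CPM at day 14, and none was at 0. Their part in the Prok2 and Ggt1 values was not tested.

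Ggt1, picked by the same blood comparisons, ran alongside Prok2 in blood. Its sham libraries stood at 160, 82.1, 43.3 and 12.3 CPM, its day 2 libraries at 45.9, 28.5, 45.6 and 37.5 CPM, and its day 14 libraries at 4.03, 0 and 0 CPM. As for Prok2, sham replicate 1 was highest, sham replicate 4 lowest, and the day 2 libraries lay within the range of sham. Against sham, day 2 had a log2 fold change of -1.08 ± 0.48 (SE). Without sham replicate 1 it was -0.23 and without sham replicate 4 it was -1.34. At day 14 the 2 counts left were 0.0139 times the pooled sham rate, with a counting interval at 95% of 0.00168 to 0.0506. Sham replicate 1 held 362 of the 459 sham counts, and without it the ratio was 0.0299. Without day 14 replicate 2 it was 0.0260, and day 14 replicate 1 held both counts. In day 14 against day 2, one of the comparisons that picked it, Ggt1 was not called once any 1 of the 3 day 14 libraries was left out. Of 5451 sham neutrophils, 7.1% had a Ggt1 count, and 2.59% did once each cell was thinned to 300 counts, which left out 200 shallower cells. The shares were 2.62% and 1.2% of 8813 cells at day 2 (653 left out). They were 0.0684% and 0.0861% of 2922 cells at day 14 (599 left out), where both shares rest on 2 cells. For Prok2 they were 14.6% and 6.99% in sham, 6.08% and 2.86% at day 2, and 0 at day 14, which allows up to 0.129% of the thinned cells to hold a count (3 cells of 2323). This limits cells with a count at that depth, not cells expressing the gene.

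Mgam levels in blood overlapped in all 3 groups. Its sham libraries stood at 86.5, 118, 66.0 and 69.3 CPM, its day 2 libraries at 52.9, 108, 127 and 64.0 CPM and its day 14 libraries at 70.6, 77.7 and 122 CPM. The means were 85.1 ± 24.0, 87.9 ± 35.2 and 90.1 ± 27.8 CPM (SD, n = 4, 4 and 3). Day 2 against sham gave a log2 fold change of -0.13 ± 0.24 (SE), with no test, since the blood day 2 libraries had helped to pick Mgam. Day 14 against sham gave -0.33 ± 0.28 (SE, edgeR quasi-likelihood test, adjusted p = 0.565), and its sign turned to 0.03 when TMM scaling was left out, so no direction is given. The 3 day 14 libraries that held 0 counts of Prok2 held 34, 47 and 26 counts of Mgam.

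**Figure D1:**
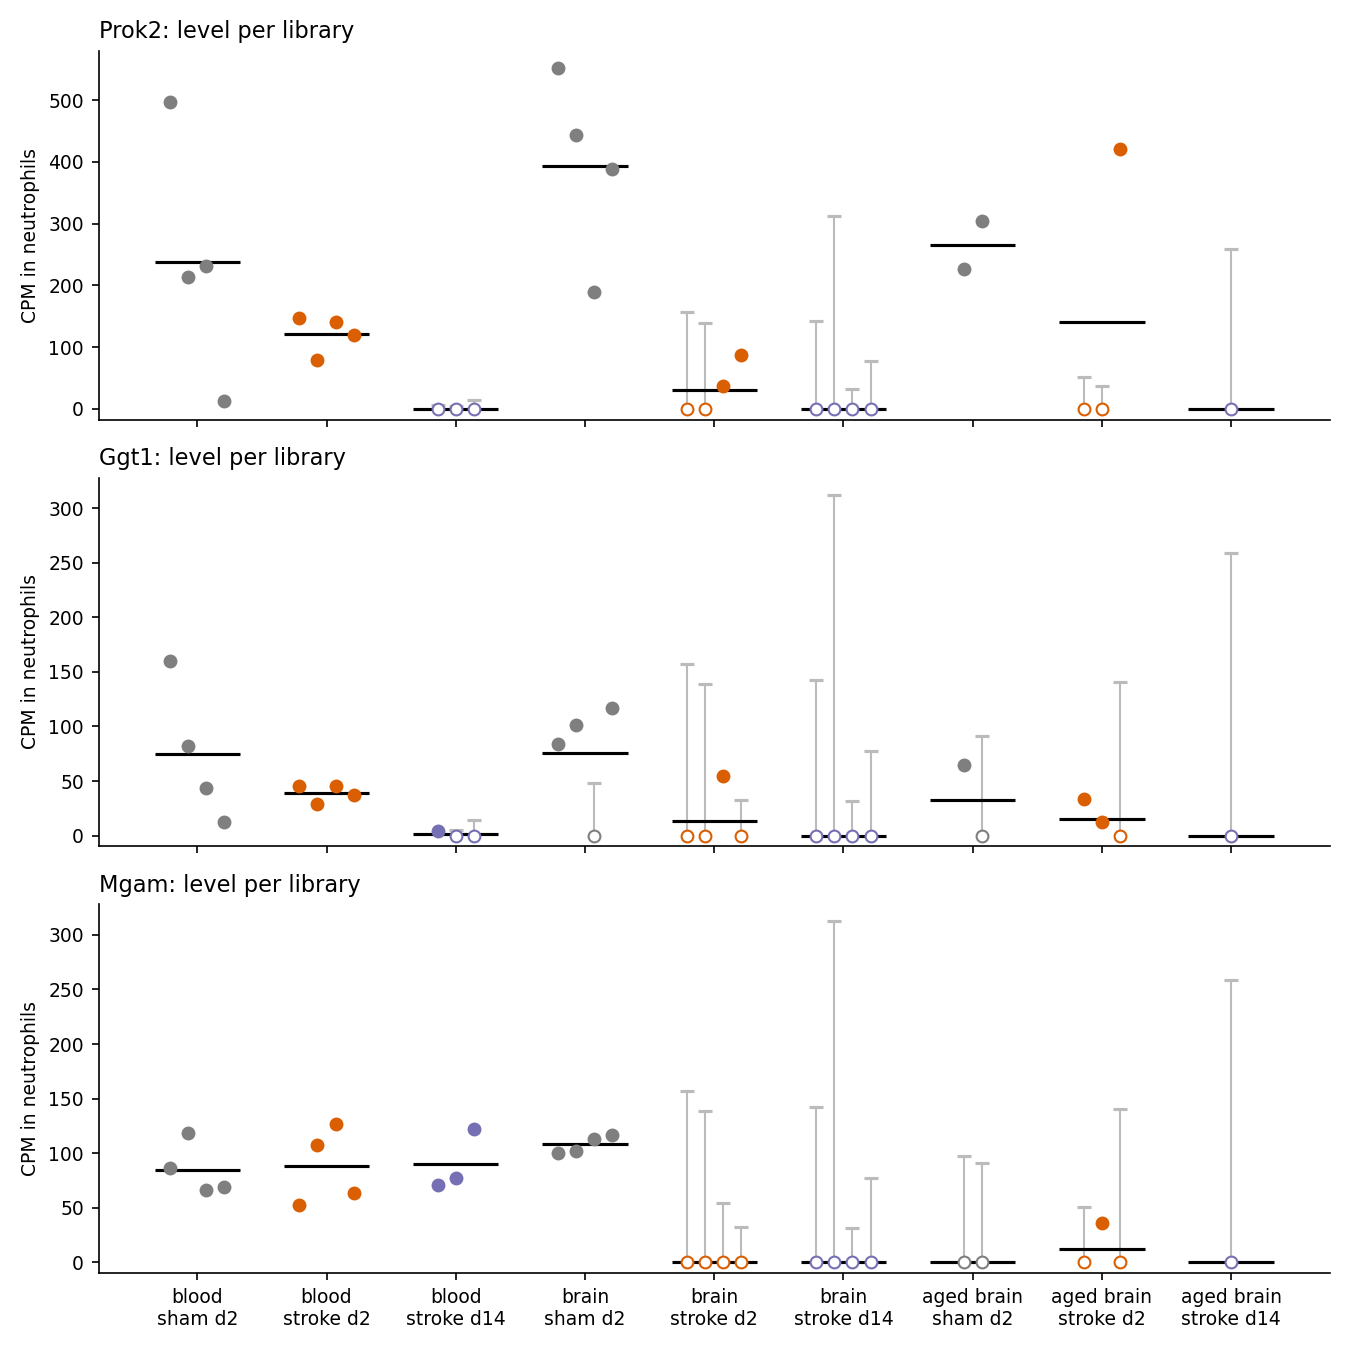
Level of Prok2, Ggt1 and Mgam in neutrophils (CPM, linear axis) in each library, by tissue, age, surgery and day (d2 and d14). Points are libraries, open where the count is 0, black lines are group means, and grey lines on open points reach the CPM that 3 counts would have given. Prok2 is at 0 in all day 14 libraries, while Mgam at day 14 is at 70.6 to 122 CPM in blood and at 0 in brain.

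In the brain of sham mice all 3 genes were present. Prok2 stood at 552, 443, 190 and 388 CPM, Ggt1 at 83.6, 102, 0 and 117 CPM and Mgam at 100, 102, 113 and 117 CPM. Mgam was the most even of the 3 there, with a mean of 108 ± 7.97 CPM (SD, n = 4) from 31 counts. Against blood sham, the log2 fold changes, brain over blood, were 0.65 ± 0.52 for Prok2, -0.05 ± 0.64 for Ggt1 and 0.37 ± 0.35 for Mgam (SE). Mgam did not pass edgeR's quasi-likelihood test (adjusted p = 0.656), where 5.08% of 2736 genes were called. For Prok2 and Ggt1, which the blood sham libraries had helped to pick, no test is given. Without blood sham replicate 1 the Prok2 value was 1.39.

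At day 2 after stroke, Prok2 fell in brain neutrophils. It stood at 0, 0, 36.3 and 86.7 CPM, below all 4 sham libraries. The log2 fold change was -3.18 ± 0.61 (SE), and the exact two-sided permutation p was 0.0286, which is the lowest value this design allows. Of the 994 genes tested, 2.82% were called lower and 3.92% had libraries that did not overlap in that direction. The 2 libraries at 0 were shallow: 3 counts would have stood at 157 and 138 CPM there, not far under the lowest sham library at 190 CPM. Of 517 sham neutrophils 12.6% had a Prok2 count, and 2.29% of 350 did at day 2, or 8.99% and 0.803% once thinned to 300 counts, with 150 and 101 shallower cells left out. The neutrophil markers summed to 241000 to 322300 CPM in brain sham and 115900 to 210600 CPM at day 2, and their part in the Prok2 result was not tested. Over the 13 alternatives in which Prok2 was not filtered out, its log2 fold change was -4.41 to -2.96. Prok2 passed the filter on low counts through the sham libraries, and without sham replicate 1 or 2, or without the cells of high counts, the filter left it out. For this reason no edgeR p value of Prok2 in brain is given here. The fit with no filter at all (log2 fold change -3.23) is no independent check. The exact test uses no filter.

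Mgam had 0 counts in all 4 stroke libraries at day 2, among 188109 counts of 350 neutrophils. With a floor of 3 counts over the group it was at least 6.78-fold lower than in brain sham, and at least 3.45-fold lower without stroke replicate 4. These stroke libraries had helped to pick the gene, so no test is given. In replicates 1 and 2, 3 counts would have stood at 157 and 138 CPM, above every sham library, so that only replicates 3 and 4 (54.5 and 32.5 CPM) could show the difference. The filter on low counts left Mgam and Ggt1 out of this fit. Without it, edgeR's quasi-likelihood test gave an adjusted p of 0.554 for Ggt1 over 12031 genes. Ggt1 stood at 0, 0, 54.5 and 0 CPM, from 3 counts, which was 0.201 times the pooled sham rate with a counting interval of 0.0387 to 0.666, and its exact permutation p was 0.143.

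At day 14 after stroke, none of the 3 genes had a count in the 363 neutrophils of the 4 young brain libraries. The floor of 3 counts lay at 31.6 to 312 CPM per library. Against day 2, Prok2 had 0 against 10 counts, and the libraries overlapped (exact two-sided permutation p = 0.429). By edgeR it was not called, with or without the replicate number as a block, where 2.41% of 994 genes were called lower. For Ggt1 and Mgam no fold is given, since both days were at or under the floor.

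After stroke, Mgam had 0 counts in young brain neutrophils at both days, while every blood library held some. At day 2, where the gene had been picked, brain was at least 5.51-fold lower than blood, or 2.81-fold without brain replicate 4, in a comparison in which 4.71% of 2736 genes were called lower. At day 14, in other libraries, the 4 brain libraries at 0 lay below the 3 blood libraries at 70.6, 77.7 and 122 CPM. With the floor of 3 counts over the group, brain was at least 4.93-fold lower, and at least 2.09-fold lower without brain replicate 3. Mgam passed the filter on low counts through the groups in which it is high, and with the compared groups alone the filter left it out. For this reason no edgeR p value of Mgam is given here. The exact two-sided permutation p was 0.0571, the smallest this design allows. In that comparison 10.2% of genes were called lower and 18.0% had all brain libraries below all blood libraries. Brain replicates 1 and 2 had floors of 142 and 312 CPM, above the blood levels. At day 14 the neutrophil markers summed to 54960 to 72320 CPM in young brain and 116000 to 217500 CPM in blood. Their part in the Mgam values was not tested.

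The blood day 2 libraries had helped to pick Prok2 and Ggt1, so their difference between tissues at day 2 is given with no test. Brain over blood was -1.36 ± 0.88 on the log2 scale for Prok2 and -1.39 ± 1.17 for Ggt1 (SE). Without a filter on low counts the Prok2 value was -1.83. Without brain replicate 4 the Prok2 value was -2.85, and the Ggt1 value was -0.67 without brain replicate 4 and -7.43 without brain replicate 3, which held all 3 Ggt1 counts. The change of Prok2 from sham to day 2 was -2.005 ± 1.02 (SE) on the log2 scale in brain minus blood. At day 14 both tissues were at or under the floor for both genes.

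The subtypes of the authors' annotation come from these same cells, so levels among them are described only. In blood sham, the pooled Prok2 level ran from 144 CPM in Neu3 to 512 CPM in Neu2, but the order of the subtypes changed between libraries. Among subtypes with at least 20 cells, Neu6 was the highest in replicate 1 (699.9 CPM), Neu4 in replicate 2 (410.1 CPM) and Neu2 in replicates 3 and 4. The pooled values lean on sham replicate 1, which held 1124 of the 1503 sham counts, while replicate 4 supplied 140 of the 285 Neu3 cells. In Neu2 the 4 sham libraries stood at 665, 303, 338 and 51.9 CPM and the 4 day 2 libraries at 306, 197, 273 and 214 CPM, again within the range of sham. Ggt1 in Neu2 stood at 205, 123, 53.9 and 34.6 CPM in the 4 sham libraries, and in Neu6 at 168, 0 and 127 CPM in replicates 1 to 3, so neither subtype was the higher in all of them. Mgam ran from 68.2 CPM in Neu5 to 103 CPM in Neu4, and the counting intervals of all 6 subtypes overlapped.

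Neu3 made up 5.23% of sham neutrophils and 72.2% of those at day 14. All 6 subtypes had 0 Prok2 counts at day 14, and Neu2 had 0 among 79512 counts, with an upper limit of the 95% counting interval of 46.4 CPM. Had each subtype kept its pooled sham level, the day 14 mix would have given 288 Prok2, 109 Ggt1 and 109 Mgam counts. The observed numbers were 0, 2 and 108. In sham Neu3, replicate 1 held 28 of the 36 Prok2 counts, and replicate 4 held 0 in its 140 cells. The part of the subtype mix in these values was not tested. Without sham replicate 1, the numbers at sham level were 139, 44.0 and 87.6. At day 2 they were 1894 for Prok2, 576 for Ggt1 and 485 for Mgam, against 772, 244 and 383 observed. Without sham replicate 1 the day 2 numbers at sham level were 1019, 268 and 489.

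**Figure D2:**
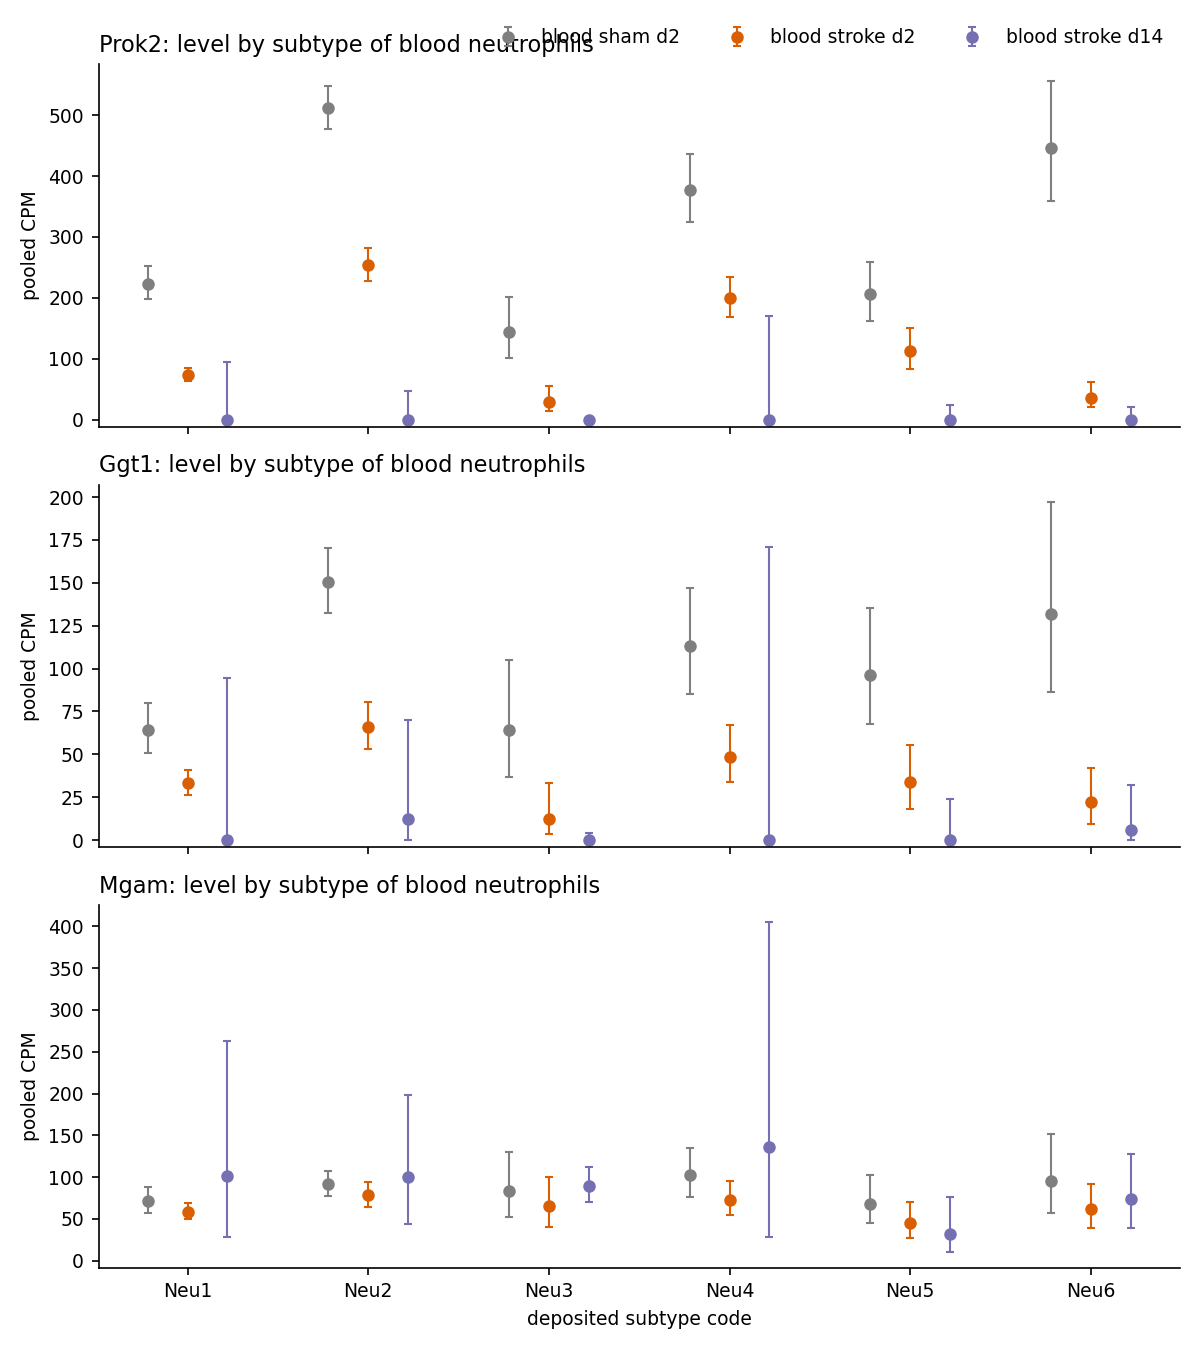
Pooled level (CPM, linear axis) of each gene in the 6 blood neutrophil subtypes, in sham, day 2 stroke and day 14 stroke libraries (d2, d14). Bars are exact 95% Poisson intervals and cover counting error only. Prok2 is at 0 in all 6 subtypes at day 14, while the Mgam intervals of the 3 groups overlap within each subtype.

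In the brain, Gran1 held 82.6% of young sham neutrophils, 35.4% at day 2 after stroke and 4.41% at day 14. Gran2 held 2.71%, 48.3% and 57.9%. These shares were not tested. Within Gran1, pooled Prok2 was 467 CPM in sham and 99.5 CPM at day 2, and the counting intervals (380 to 571 and 45.5 to 189 CPM) did not overlap. The 4 sham libraries stood at 761, 511, 223 and 415 CPM in Gran1, above the 2 stroke libraries with at least 20 such cells, at 63.2 and 141 CPM. Mgam in Gran1 was 100 CPM in sham and 0 at day 2, with an upper limit of 40.8 CPM. At sham levels, the day 2 mix of subtypes other than Gran3 would have given 42.6 Prok2 and 11.3 Mgam counts, against 10 and 0 observed. The day 14 mix would have given 3.63 Prok2, 0.75 Ggt1 and 3.09 Mgam counts. For Ggt1 this is under the floor of 3 counts and for the other two just above it. Leaving out sham replicate 1, 3 or 4 put Mgam under the floor too (2.80, 2.98 and 2.25), and leaving out replicate 2 gave 5.52. The reference for Gran2, most of the day 14 cells, is 14 sham cells. Gran3 had no cells in sham and is left out of these numbers.

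**Figure D3:**
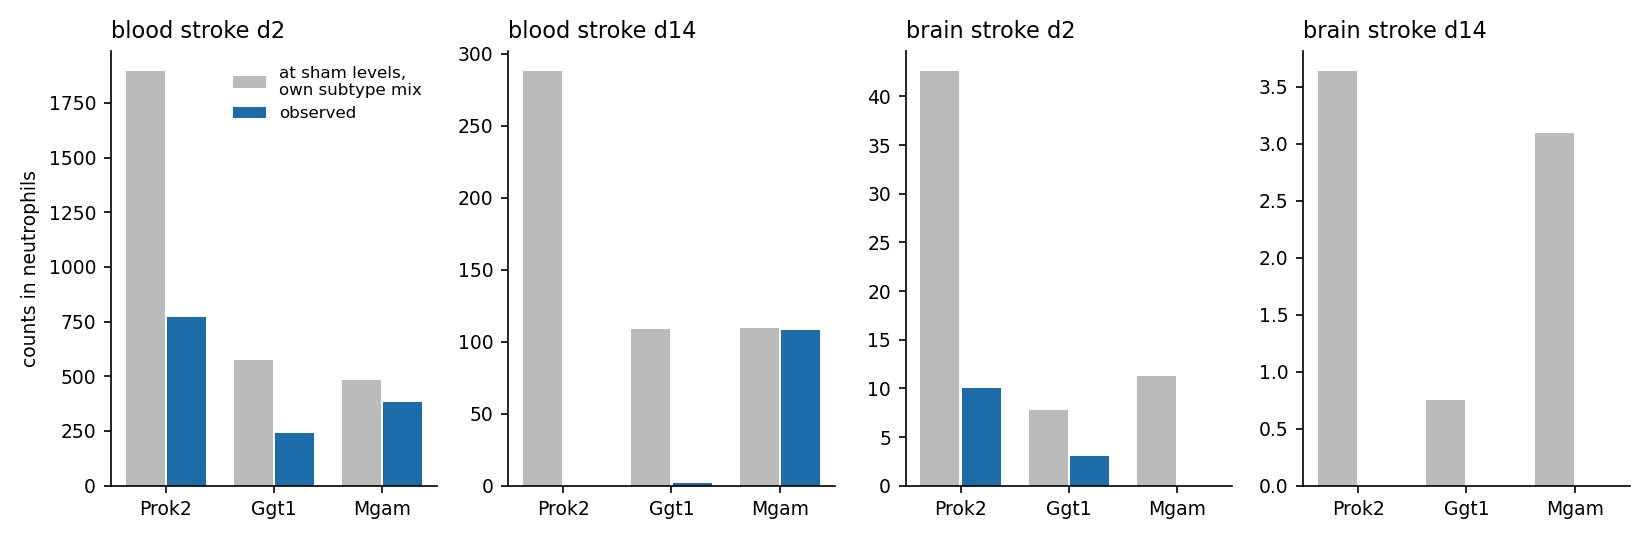
Observed counts of each gene in stroke neutrophils (blue bars) and the counts that the same mix of subtypes would give at pooled sham levels (grey bars), with a linear count axis for each group (d2, d14). Blood at day 14 shows 0 Prok2 and 2 Ggt1 counts against 288 and 109 (139 and 44.0 without sham replicate 1), while Mgam shows 108 against 109 (87.6). In blood at day 2 the grey bars of Prok2 and Ggt1 would stand at 1019 and 268 without that library, in place of 1894 and 576. The part of the subtype mix was not tested.

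In the aged brain, counts were few. Prok2 stood at 304 CPM in the male and 227 CPM in the female sham library, within the range of young sham. At day 2 after stroke it stood at 0 in the male and in 1 female library and at 421 CPM in the other female library, where all 9 counts came from 1 cell. Mgam was at 0 in both sham libraries, where 3 counts would have stood at 91.3 and 97.3 CPM, against 100 to 117 CPM in the young sham libraries. Over both libraries together 3 counts would have stood at 47.1 CPM. The difference between aged and young sham was not tested. The male stroke library at day 2 held 3 Mgam counts in 2 cells, 36.2 CPM, and the other aged stroke libraries 0. Ggt1 stood at 0 and 64.9 CPM in sham and at 12.1, 33.9 and 0 CPM in stroke. Aged and young stroke libraries at day 2 overlapped for all 3 genes (exact two-sided permutation p = 0.857 for Prok2 and 1 for Ggt1; no test is given for Mgam, which the young libraries had helped to pick; the smallest possible was 0.0571). No gene was called in that comparison in edgeR's quasi-likelihood test, 0.0% of 911, with 57 past 0.05 before adjustment, and DESeq2 also found none. The single aged library at day 14 had 0 counts of each in 21 neutrophils.

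Other genes of the same pathways were counted from lists. In blood at day 14 against sham, 10 genes of the glutathione and gamma-glutamyl cycle besides Ggt1 were tested and none was called in either direction. Their median log2 fold change was -0.15, against 0.02 over all genes tested, of which 3.8% were called lower. Of 7 further leukotriene genes, Alox5ap, the activating protein of 5-lipoxygenase, was called lower (3045 against 5211 CPM, log2 fold change -1.14 ± 0.30 SE, edgeR quasi-likelihood test, adjusted p = 0.0357). Of 7 further glucosidase and glycogen genes, Gyg, the primer of glycogen synthesis, was called lower (35.6 against 148 CPM, -2.31 ± 0.48 SE, adjusted p = 0.0109). Of the 11 tested genes of the G-CSF receptor and neutrophil transcription factor list, none was called. Of 14 mature neutrophil genes tested, 2 were called lower, Retnlg (-1.70) and the formyl peptide receptor Fpr1 (-1.07), and the median was -0.73. Of 8 immature granule genes tested none was called, and their median was 1.41. In blood at day 14 against day 2, Ggt5, a related gamma-glutamyltransferase that also acts on leukotriene C4, was called lower (60.9 against 104 CPM, -1.09 ± 0.28 SE, adjusted p = 0.0382), as were 3.3% of all genes. In the same glutathione list, Gstp1, a glutathione transferase named after its values were seen, was called higher (20.9 against 3.88 CPM, 2.06 ± 0.53 SE, adjusted p = 0.0359), and similar gene copies may share its reads.

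In brain at day 2 against sham, where Prok2 fell, 5 of 8 tested immature granule genes were called lower and none higher, where 2.82% of 994 genes were called lower. Their median log2 fold change was -2.38, against -0.01 over all genes. Ngp, a granule protein, stood at 312 against 9221 CPM and Ltf, lactoferrin, at 134 against 2453 CPM. Of 13 mature neutrophil genes 3 were called lower, Ly6g, Mmp8 and Padi4, with log2 fold changes of -1.77, -1.73 and -1.54. Of 8 tested genes of the aged and tissue neutrophil list, 6 were called higher, where 5.53% of all genes were. Socs3, a feedback inhibitor of cytokine signalling, was the gene called in the G-CSF receptor and transcription factor list (372 against 123 CPM, 1.43 ± 0.41 SE, edgeR quasi-likelihood test, adjusted p = 0.0318). The sham reference was itself high for granule genes. In brain against blood sham, 3 of 8 tested immature granule genes were called higher and none lower, with a median log2 fold change of 2.94. There, 5.08% of 2736 genes were called in either direction. In brain against blood at day 14, Pygl, the liver-type glycogen phosphorylase, and Ugp2, which makes UDP-glucose, were called lower, which makes 2 of the 3 glucosidase and glycogen genes tested besides Mgam. Pygl stood at 452 against 1100 CPM and Ugp2 at 79.9 against 236 CPM, where 10.2% of all genes were called lower. Slc7a11, the cystine transporter that feeds glutathione synthesis, was called higher there (624 against 33.4 CPM), as were 11.1% of all genes, while Mgst1, Gpx1 and Gsr were called lower (-2.67, -1.56 and -0.92). Of 14 mature neutrophil genes tested in that comparison, 5 were called lower and 2 higher. Of 12 genes of the aged and tissue neutrophil list, 11 were called higher and none lower.

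Across the 11 blood libraries, the gene with the pattern most like that of Prok2 was Ggt1. Likeness was the root mean square difference of centred log2 CPM among 4079 genes whose mean reached 20 CPM, and the libraries share the groups that picked the members. For Prok2 it was 1.06 to Ggt1, then 1.21 to Rhov, 1.30 to Stfa2, 1.41 to Stfa3 and 1.43 to Wfdc17, against a median of 2.98 over all genes. For Ggt1 the nearest were Rhov (0.57), Wfdc17 (0.67), Igfbp6 (0.85), Galnt6 (0.88) and Ifitm1 (0.91), against a median of 2.09. Wfdc17, an abundant transcript of these cells, went from 12810 CPM in sham and 13380 CPM at day 2 to 1101 CPM at day 14. Rhov went from 44.5 and 26.9 CPM to 0. For Mgam the nearest were Rb1cc1 (0.15), Tut7 (0.16), Wdr26 (0.18), Pik3c3 (0.19) and Akap13 (0.19), against a median of 0.51. Rb1cc1, an autophagy gene, stood at 146, 165 and 163 CPM in sham, day 2 and day 14.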

How the data were processed

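Drop-seq libraries of mouse blood leukocytes and sorted brain cells were read as the expected counts per gene and cell that the authors deposited, which are not whole numbers. The authors' deposited cell metadata give a percent of mitochondrial counts and cell type codes, which were taken as they stand. Seurat and mm10 are named in the submitters' processing notes, while aligner, counter and cell filters are not given in the sources used here. No doublet caller was run, and leaving out cells above the 95th percentile of counts was an alternative. Counts were summed per library over neutrophils, rounded, and fitted with edgeR 4.0.16 (quasi-likelihood test, TMM, filterByExpr) for libraries of at least 20 neutrophils. P values were two-sided and Benjamini-Hochberg adjusted over all genes tested, and genes were called at 0.05. The test was tried on simulated data. Young blood, young brain, both tissues, and day 2 stroke by age were 4 separate fits. Standard errors were derived as the log2 fold change over the square root of F. Alternatives included DESeq2 1.42.0, no filter, no TMM, counts rounded up, 50 cells, each library left out and the replicate number as a block. Same-numbered brain libraries of day 2 and day 14 after stroke may be paired, so the block fit is given beside the main fit, which is unpaired. Their deviations from group means correlated at 0.181 to 0.465 in all 4 pairs. No label pairs them, and depth was not held fixed in these correlations. Libraries of different numbers were not compared, so the correlations cannot show a pairing. Exact permutation tests used library CPM. Intervals and floors of 3 counts cover counting error only, and p values the spread between pooled libraries. The 3 members and the lists were chosen with earlier results of these data known. Of a list, at most 4 called genes of largest change with a mean of at least 20 CPM were named, and the 5 genes nearest to each member. The difference between tissues in the change from sham, bounds with a library left out and subtype numbers with a sham library left out were added after the data were seen.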

Additional observations from a re-analysis of the deposited data

Results flagged for a closer look

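Ggt1 in brain at day 2 after stroke stood at 54.5 CPM in replicate 3 and at 0 in the other 3 libraries, so that this library lay far from the rest of its group. The value rests on 3 counts in 3 cells, and floors of 157, 138 and 32.5 CPM applied to the libraries at 0. With the other libraries at 0, any count in this one gives such a gap, and 54.5 CPM equals the floor of 3 counts in it.

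The change of Mgam from sham to stroke drew attention because its fitted values stood apart between brain and blood. The fitted difference, brain minus blood, was -8.71 on the log2 scale at day 2 and -8.53 at day 14. Both are descriptions with no test here: Mgam entered the fit through the groups in which it is high, and the day 2 libraries had picked the gene. The size of both depends on the prior count, since the brain stroke libraries were at 0. Both values share the sham libraries.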

How the results depend on the processing

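Of the alternatives tried, 396 kept direction and call. No filter on low counts moved the called genes to 32 in blood at day 2 against sham (Prok2 -1.09, Ggt1 -1.07), 487 at day 14 against sham, 408 at day 14 against day 2, 757 in brain against blood at day 2 (Prok2 -1.83) and 242 in sham. It moved them to 45 in brain at day 2 against sham, 25 at day 14 against day 2, and 6 for age. Counts rounded up gave 568 and only the compared groups 181 in brain against blood at day 2. Leaving out cells of high counts gave 50 in brain at day 2 against sham and a mean Mgam of 94.7 CPM in brain sham. Without TMM, Mgam at day 14 turned to 0.029 against sham and 0.098 against day 2. Ggt1 in brain against blood sham turned to 0.077 with DESeq2 and 0.003 with only those groups.

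With each library left out in turn, called genes ranged from 83 to 359 in blood at day 14 against sham and 67 to 218 at day 14 against day 2. In brain against blood they ranged from 92 to 130 in sham, and in brain from 42 to 80 at day 2 against sham and 15 to 55 at day 14 against day 2. Ggt1 at day 14 against day 2 ranged from -8.42 to -4.15, in a comparison that picked the gene. Ggt1 in brain against blood sham ranged from -0.42 to 0.32, and Mgam in blood at day 2 against sham from -0.273 to 0.024. The cause of these changes was not tested.

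With the replicate block, Ggt1 in brain against blood sham was 0.19, and Prok2 in brain at day 2 against sham was -3.15. The block moved called genes by no more than 1.5 times. Deviations of same-numbered libraries correlated from -0.16 to 0.352 in blood (over 0.1 in 4 of 10 pairs) and from -0.203 to 0.23 between brain sham and stroke, so for those comparisons no pairing is assumed. Between brain at day 2 and day 14 after stroke, same-numbered libraries may be paired, though no label says so. The block gave 43 called genes there and -4.12 for Prok2, which was not called. Blood sham and day 2 replicates 1 and 2 carry library codes that match but for the last digits, and those pairs correlated at 0.352 and 0.18. No label says what the codes stand for, and the planned batch term was not run. Few neutrophils per brain library limit all zeros there.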

Other observations

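Some blood neutrophils held counts of more than 1 of the genes. In sham, 130 cells had counts of Prok2 and Ggt1, against 56.4 cells if both were spread independently over 5451 cells, and at day 2 after stroke the numbers were 44 and 14.1 over 8813 cells. Prok2 and Mgam met in 66 sham cells against 48.3, and in 26 day 2 cells against 21.7. The cells share library and depth, which were not held fixed, so these numbers are a description.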
